A study of Homo sapiens with 3 samples.

Results

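The nuclear-encoded subunits of the respiratory chain were described in MCF10A, a human breast epithelial line that is immortalized but does not form tumours. Members were chosen by gene symbol alone. A protein-coding gene without a hyphen in its symbol was taken if the symbol began with NDUFA, NDUFB, NDUFC, NDUFS or NDUFV and a digit, with UQCR, with COX4 to COX8 or with ATP5, or if it was NDUFAB1, SDHA, SDHB, SDHC, SDHD, CYC1 or CYCS. This gave 90 of 20046 protein-coding genes in a table of 62754 genes. Complex I had 37 of them, complex II 4, complex III with cytochrome c 11, complex IV 19 and complex V 19. NDUFA4 and its relative NDUFA4L2 were counted in complex IV, where the protein is now placed, despite their names.

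RNA was sequenced to describe the cell line for a genome-scale metabolic model, in which an enzyme counts as present or absent by its transcript. The 3 samples, named replicates 1 to 3, are of the genotype Empty vector (EV) and received no treatment. Their vector is the Retro-X Tet-One inducible system without a gene of interest, the cells were selected with puromycin, and no doxycycline was given, so no sample lacks the vector. All 3 form 1 batch and 1 condition, and hence no group could be compared with another and no test was run. Nothing says that the replicates came from separate cultures, so the SD given here may be technical. Values are TPM, a unit that corrects read numbers for the length of each gene's transcript and brings every library to the same total. A gene was counted as present when its mean reached 1 TPM, the limit that the study used for enzymes. The deposited TPM match a division by the longest annotated transcript of a gene, so levels of different genes, and their order, are on that scale unless another length is named. Levels per base of the canonical transcript or per coding base were tried after seeing the data. They are given beside some of the ratios and orders that they change, and other orders given in TPM alone can change too.

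Reads recovered from the TPM numbered 15273329, 15446347 and 11166546 in replicates 1 to 3. Basal mammary markers were present, with 9 of 9 genes at or above 1 TPM, a summed level of 16521 to 20926 TPM in the replicates and KRT5 highest. Of 5 luminal markers 3 were present, with KRT18 at 412.6, KRT8 at 117.8 and GATA3 at 12.8 TPM. The other luminal markers, the hormone receptors ESR1 and PGR, were below 1 TPM. Markers of skeletal or heart muscle reached 1 TPM in 0 of 5 cases, with a summed level of 0 to 0.496 TPM, and markers of testis germ line in 0 of 4 cases, with 0 to 0.0789 TPM. Of 3 fibroblast markers 1 was present, COL1A1 at 4.96 TPM, while COL1A2 had 0 reads and PDGFRB 0.271 TPM. Of 2 blood and vessel markers 1 was present, PECAM1 at 1.77 TPM, while PTPRC had 0.0728 TPM. In bulk RNA, fewer cells with a transcript and less of it in each cell cannot be told apart.

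The respiratory chain lies in the inner mitochondrial membrane. Complex I takes electrons from NADH and complex II takes them from succinate; both pass them to ubiquinone, complex III passes them on to cytochrome c, and complex IV reduces oxygen. Complexes I, III and IV pump protons, and complex V, the ATP synthase, uses the gradient to make ATP. Complexes I, III, IV and V are built from nuclear and mitochondrial gene products, and several subunits of complex IV exist in a common form and in a form known from heart and skeletal muscle, lung or testis.

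Nearly all members were present. At a mean of 1 TPM or more stood 82 of 90 members (91.1%), against 56.7% of all protein-coding genes. In every replicate 81 members passed, against 55.2%, and 43 members (47.8%) reached 100 TPM, against 7.86%. The median member lay at percentile 92.0 of protein-coding genes. The 79 common subunits, the forms used in most tissues, were at or above 1 TPM in each replicate, whereas 0 of 7 forms known from particular tissues or from low oxygen, here called tissue forms, reached a mean of 1 TPM. The remaining 4 members were cytochrome c (CYCS), the ATP synthase inhibitor ATP5IF1 and the copy genes UQCRHL and ATP5MGL. Replicates fell on both sides of 1 TPM for 2 members (2.22%), NDUFA4L2 and UQCRHL, against 2.84% of protein-coding genes.

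**Figure D1:**
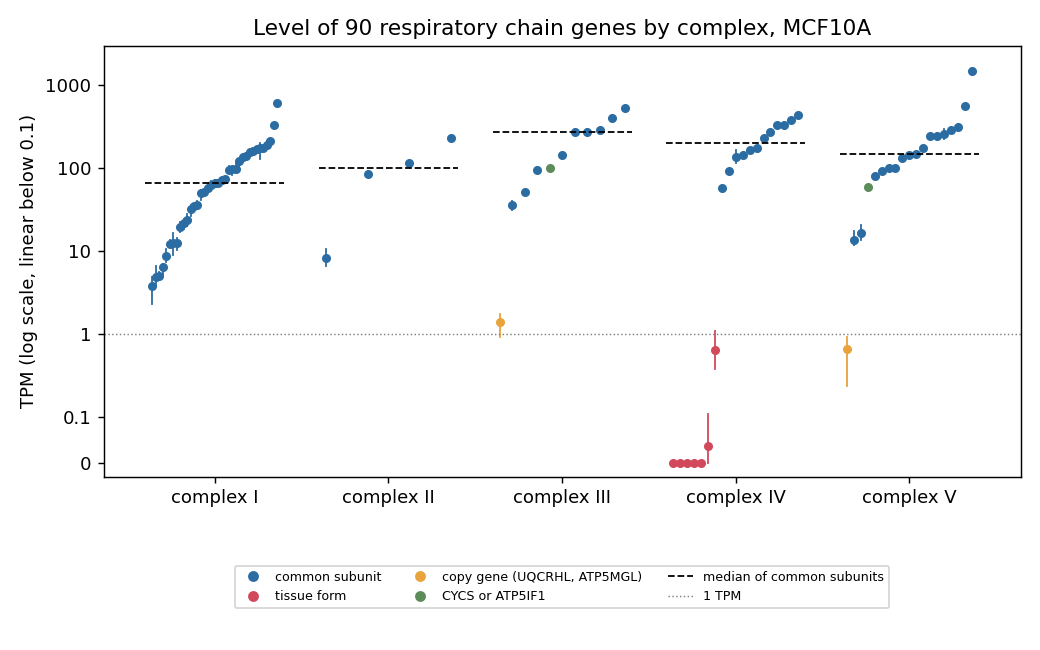
Mean TPM of each of the 90 members (points) with the lowest and highest replicate (vertical lines), grouped by complex on a log axis that is linear below 0.1; dashed lines are medians of the common subunits. All 79 common subunits sit above the dotted line at 1 TPM, and the 7 tissue forms of complex IV sit below it.

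Complex I had the widest set of mean levels among its common subunits, with a highest-to-lowest ratio of 164, against 109 in complex V. The SD of this ratio over single replicates was 66.7 in complex I and 32.8 in complex V. NDUFS5, a small accessory subunit on the intermembrane side, led with 600.1, 620.0 and 641.0 TPM. NDUFA7, an accessory subunit, had the lowest mean, with 2.31, 4.81 and 4.26 TPM, which rest on 7, 15 and 11 reads. NDUFA9 was lower in replicate 2, at 4.73 TPM, and NDUFA13 in replicate 3, at 3.84 TPM. The catalytic core takes electrons from NADH through a flavin and a chain of iron-sulfur clusters. NDUFV1, which carries the flavin and takes up NADH, was the highest of the core subunits in TPM with 131.1, 130.2 and 104.2. NDUFS3 had 70.2, 59.4 and 59.9 TPM. NDUFS1, the largest cluster-bearing subunit, and NDUFS8, with a pair of clusters, overlapped between replicates. NDUFS1 had 55.4, 48.6 and 50.5 TPM. NDUFS8 had 55.1, 53.6 and 41.1 TPM. NDUFS7, which bears the last cluster before ubiquinone, was lower in all replicates, at 23.1, 28.1 and 20.1 TPM. NDUFV2, the partner of NDUFV1 in the NADH-oxidizing tip, was lowest at 8.95, 11.7 and 16.7 TPM, and its replicates did not overlap those of NDUFS7. The NDUFV1 to NDUFV2 ratio of TPM was 10.7 ± 4.23 (SD, n = 3). Of the canonical bases of NDUFV2, 89.97% are shared with another gene, and over unshared canonical bases alone the ratio was 1.59 ± 0.63, with 2.18, 1.66 and 0.926 in the replicates. Per canonical base the order of the core turned, with NDUFS3 at 192.5, NDUFS8 at 170.0, NDUFV1 at 160.8, NDUFS7 at 95.9 and NDUFS1 at 42.1. Among accessory subunits the median was 35.0 TPM for 13 NDUFA members, 74.1 TPM for 11 NDUFB members and 99.7 TPM for 6 NDUFC, NDUFS and NDUFV members. Per canonical base these medians were 54.7, 187.8 and 99.6, so the NDUFB members led. NDUFA1, needed to build the membrane arm, led the NDUFA members at 330.4 ± 18.3 TPM, and NDUFAB1, the mitochondrial acyl carrier protein, had 191.8 ± 21.0 TPM (SD, n = 3). NDUFB members ran from NDUFB5 at 12.3 ± 1.17 TPM to NDUFB10 at 216.2 ± 14.8 TPM. NDUFC2, at 8.85 ± 1.67 TPM, and NDUFA9, at 5.08 ± 0.471 TPM, were far below the median of 67.1 TPM of complex I. Of their canonical bases 19.7% and 11.7% are shared with another gene. Over unshared canonical bases alone their levels were 9.02 and 4.70. Per coding base they were 43.9 and 30.7, against a median of 206.6 for complex I. NDUFA9P1, a pseudogene of NDUFA9, had 1.26 TPM, or 24.8% of the level of its parent.

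Complex II oxidizes succinate and is also an enzyme of the citric acid cycle. SDHB, its iron-sulfur subunit, was highest with 251.1, 240.6 and 210.7 TPM. The membrane anchors SDHC and SDHD came next. SDHC had 113.5, 117.1 and 116.2 TPM. SDHD had 92.5, 78.3 and 86.0 TPM and did not overlap SDHC. SDHA, the flavin subunit that binds succinate, was far lower at 6.59, 10.7 and 7.22 TPM, and the ratio of SDHB to SDHA was 29.9 ± 7.86 (SD, n = 3). Another gene shares 69.4% of the canonical bases of SDHA, and over unshared canonical bases the ratio was 9.36 ± 2.46. Of the 31-base words in SDHA, 42.3% also occur in the genome outside the gene, on either strand. The share was 75.3% for SDHC and 66.6% for SDHD, against 0.102% for SDHB.

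Complex III and cytochrome c held several of the highest members. CYC1, the heme-bearing cytochrome c1, had 299.0, 304.3 and 258.3 TPM, and UQCRFS1, the Rieske iron-sulfur protein, had 97.3, 100.2 and 86.7 TPM. The replicates of these electron carriers did not overlap, and their ratio was 3.03 ± 0.05 in TPM, 4.65 ± 0.07 per canonical base and 1.51 ± 0.02 per coding base (SD, n = 3). The core proteins UQCRC1 and UQCRC2, which face the matrix, were at 405.3 ± 36.7 and 272.6 ± 25.2 TPM, with a ratio of 1.49 ± 0.04 (SD, n = 3). UQCRH, the acidic hinge protein next to cytochrome c1, was the highest in TPM with 566.7, 502.3 and 525.8. Per coding base UQCRQ at 1416 and CYCS at 1410 were above UQCRH at 1092. UQCR11 was the lowest common subunit at 35.7 ± 4.16 TPM. CYCS, the mobile carrier to complex IV, had 106.6, 91.6 and 101.4 TPM.

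The 12 common subunits of complex IV spanned a ratio of 7.66 in TPM, against 14.9 in complex III and 28.6 in complex II. This order held only in part, since complex II without SDHA spanned a ratio of 2.74, and per coding base complex III spanned 6.28 and complex IV 10.7. Levels in complex IV ran from COX6C at 429.8, 450.5 and 435.8 TPM to COX7A2L at 61.2, 57.4 and 53.3 TPM. Per canonical base COX4I1 was above COX6C, with 709.9 against 358.3. COX7A2L, known for binding complex III and complex IV together, was below COX7A2 in each replicate, and COX7A2 stood 5.87 ± 0.45 times higher in TPM, 8.66 ± 0.66 times per canonical base and 2.41 ± 0.18 times per coding base (SD, n = 3). COX5A and COX5B, which sit on the matrix side, had 231.1 ± 9.07 and 334.9 ± 17.1 TPM. The median log2 SD between replicates was 0.068 in the common subunits of complex IV, against 0.11 over the members at or above 1 TPM.

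In complex V the catalytic head is made of 3 copies each of the alpha and beta subunits. ATP5F1B, the beta subunit with the catalytic sites, was the highest of all members in TPM with 1603, 1541 and 1331, though per coding base COX7C at 1891 was above ATP5F1B at 1345. ATP5F1A, the alpha subunit, had 345.6, 309.9 and 285.1 TPM. The ratio of their TPM was 4.76 ± 0.19 (SD, n = 3), whereas the ratio of their reads was 1.41, 1.51 and 1.42 and that of levels per coding base 1.51. The longest annotated transcript of ATP5F1A has 5761 bases and that of ATP5F1B 1759, while their coding sequences have 1659 and 1587. The ratio of levels therefore depends on which length is used. ATP5F1C, the central stalk, had 568.7 ± 19.2 TPM, and the smaller stalk subunits ATP5F1D and ATP5F1E had 101.3 ± 6.03 and 79.7 ± 2.58 TPM. In the peripheral stalk, ATP5PB, ATP5PF and ATP5PD had 248.6 ± 19.2, 173.9 ± 1.45 and 143.2 ± 8.56 TPM. In the membrane part, ATP5ME was highest at 257.4 ± 38.5 TPM and ATP5MG was lowest with 11.8, 11.8 and 17.3 TPM. ATP5IF1, which blocks ATP hydrolysis, had 59.8, 62.5 and 56.8 TPM.

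The order of the complexes followed the choice of length as well. With the deposited TPM, the median of the common subunits was 64.7 ± 2.72 TPM for complex I, 100.6 ± 2.71 for complex II, 148.7 ± 7.08 for complex V, 205.0 ± 3.64 for complex IV and 256.2 ± 4.45 for complex III, as the mean and SD of the 3 replicate medians. Per base of the canonical transcript, complex II was lowest at 85.2 ± 2.61 and complex V highest at 251.1 ± 11.2, and complex IV at 240.5 ± 6.49 overlapped complex V. Per coding base, complex I was lowest at 210.8 ± 3.11 and complex IV highest, with replicate medians of 1001, 972.4 and 939.3. For 23 of the 79 common subunits the longest transcript was more than 2 times as long as the canonical one, and for 28 they were equal. Over the 61 common subunits without a shared base, the rank correlation between the length of the longest transcript and TPM was -0.60, and with the level per canonical base -0.32. Both measures contain the same reads and a length, so this is a description across genes.

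The paired forms gave the sharpest contrast within the members. No read was recorded in any replicate for 5 members (5.56%), all of them tissue forms, against 26.2% of protein-coding genes, and a count of 0 allows up to 3 reads per library. COX4I1, the largest nuclear-encoded subunit of complex IV, had 175.6, 176.8 and 151.0 TPM. COX4I2, its form known from lung, had 0 TPM in each, so COX4I1 was at least 150-fold higher in every replicate when COX4I2 was set to 3 reads. COX6A1 had 93.6, 89.2 and 94.3 TPM, and COX6A2, the heart and muscle form, had 0 in each, which makes COX6A1 at least 52.0-fold higher. COX7A2 had 333.9, 332.9 and 337.9 TPM against 0 for COX7A1, the other heart and muscle form, and was at least 233-fold higher. COX7B had 152.0, 145.5 and 139.6 TPM against 0 for COX7B2, and was at least 128-fold higher. COX8A had 126.9, 115.6 and 167.7 TPM against 0 for COX8C, and was at least 113-fold higher. For COX7B the bound was 116-fold over canonical length and 516-fold over coding length, and for COX8A it was 113-fold and 107-fold. Over both lengths it was higher than in TPM for COX4I1, COX6A1 and COX7A2. COX7B2 and COX8C are known from testis. Of COX6B2, another testis form, 1 read was found in replicate 3, or 0.107 TPM, and 0 reads in the others, while COX6B1 had 408.8, 386.9 and 357.7 TPM.

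NDUFA4L2, a gene known to respond to low oxygen, was the tissue form with most reads. It had 0.476, 1.08 and 0.373 TPM on 3, 7 and 2 reads, and NDUFA4 had 178.4, 162.8 and 181.3 TPM. The log2 ratio of NDUFA4 to NDUFA4L2, with 1 TPM added to both, was 6.76 ± 0.40 (SD, n = 3). UQCRHL, a copy of the hinge protein gene, had 1.48, 0.932 and 1.74 TPM, and UQCRH was 408 ± 120 times higher in TPM (SD, n = 3). The longest transcript of UQCRHL has 2180 bases and the canonical one 276, and UQCRH was 65.9 ± 19.5 times higher per canonical base and 128.3 ± 37.9 times per coding base. Their proteins are 96.7% identical, and 49.7% of the 31-base words of UQCRH occur elsewhere, so the level of the copy is uncertain. ATP5MGL, a copy of ATP5MG with 89% protein identity, had 0.238, 0.925 and 0.838 TPM on 1, 4 and 3 reads. The tissue forms of complex IV differ more from the common ones, from 50% identity between COX8A and COX8C to 70% between COX7B and COX7B2.

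**Figure D2:**
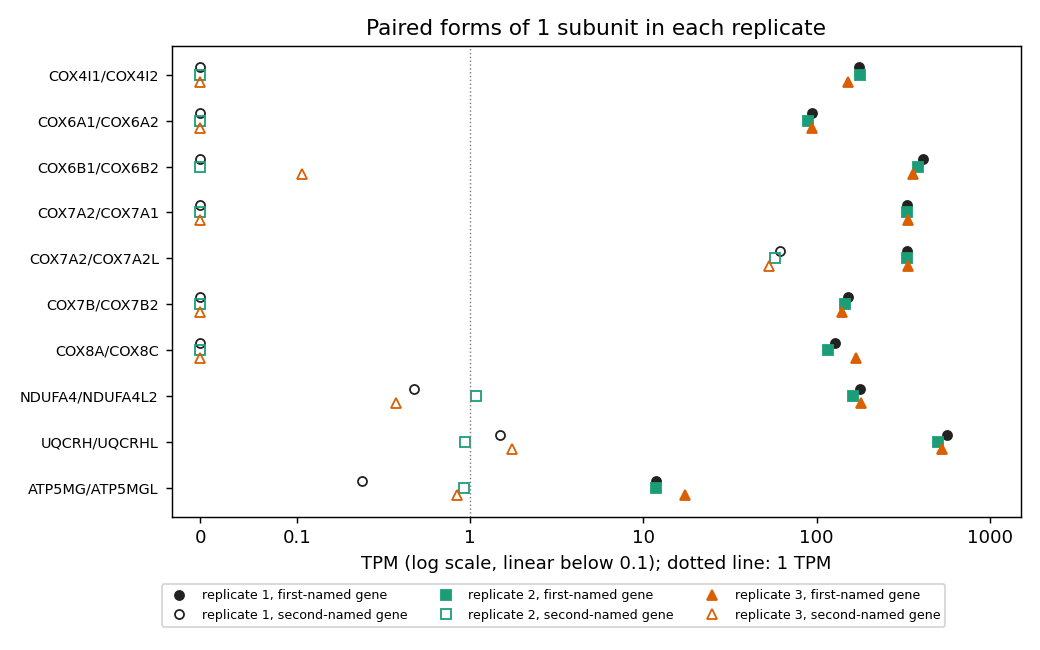
TPM of both genes of 10 pairs in each replicate, on a log axis that is linear below 0.1; filled symbols are the first-named gene and open symbols the second. The first-named gene is above the second in each pair and replicate, and 5 of the second-named genes lie at 0 in all 3 replicates.

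The rotor ring of complex V shows the opposite arrangement, in which 3 genes on different chromosomes encode 1 mature protein. ATP5MC1, ATP5MC2 and ATP5MC3 differ in the sequence that directs import into mitochondria and share their last 77 residues. The 231 bases that encode those residues are shown because they are where reads from the 3 genes could be confused. Capitals mark the 57 positions at which not all 3 genes have the same base. The sequences run 5′ to 3′ on the coding strand, from GENCODE release 44 on GRCh38.
ATP5MC1: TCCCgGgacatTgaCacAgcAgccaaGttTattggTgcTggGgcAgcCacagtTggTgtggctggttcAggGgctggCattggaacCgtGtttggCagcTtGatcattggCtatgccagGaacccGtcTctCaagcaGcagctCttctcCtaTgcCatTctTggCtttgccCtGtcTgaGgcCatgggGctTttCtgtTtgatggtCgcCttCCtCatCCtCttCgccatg
ATP5MC2: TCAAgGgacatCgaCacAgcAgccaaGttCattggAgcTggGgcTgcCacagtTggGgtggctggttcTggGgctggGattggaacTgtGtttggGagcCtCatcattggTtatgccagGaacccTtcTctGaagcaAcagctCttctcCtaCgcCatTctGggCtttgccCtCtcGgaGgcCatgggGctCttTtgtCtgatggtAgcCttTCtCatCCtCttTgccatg
ATP5MC3: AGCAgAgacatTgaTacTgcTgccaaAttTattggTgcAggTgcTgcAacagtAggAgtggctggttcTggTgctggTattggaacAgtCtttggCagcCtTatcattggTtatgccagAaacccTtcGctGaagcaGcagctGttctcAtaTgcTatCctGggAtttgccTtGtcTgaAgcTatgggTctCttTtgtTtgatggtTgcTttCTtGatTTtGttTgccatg

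ATP5MC1 and ATP5MC2 were identical at 88.3% of these bases, and each was 80.1% identical to ATP5MC3. Of the differences between pairs, 84.8% to 88.9% fell on the third base of a codon, and the longest run without a difference was 11 to 17 bases, shorter than the 31-base words used to look for copies. In TPM, ATP5MC3 held the largest part of the sum in each replicate, with 55.3%, 53.4% and 54.6%. ATP5MC2 held 27.3%, 28.1% and 28.1%, and ATP5MC1 held 17.3%, 18.4% and 17.3%. The 3 ranges did not overlap. The order depends on the length used. Per canonical base ATP5MC2 held 43.1 ± 0.42%, ATP5MC1 30.01 ± 0.79% and ATP5MC3 26.9 ± 0.78% (SD, n = 3), which puts ATP5MC3 last, and per coding base ATP5MC3 was again first with 59.4 ± 0.96%. The sum was 528 ± 40.7 TPM (SD, n = 3). ATP5MC1 has 8 annotated pseudogenes, of which ATP5MC1P6 was at 12.9 TPM, and together they had 14.6% of the level of the parent.

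Low levels of common subunits went together with exons that another gene on the same strand also claims. At least 50% of the canonical exonic bases were shared in 7 members (7.78%), against 6.6% of protein-coding genes. These were NDUFA7 (77.9% shared), NDUFA13 (83.9%), NDUFA11 (68.2%), NDUFV2 (89.97%), NDUFB8 (72.0%), SDHA (69.4%) and ATP5PO (63.8%). Their median was 8.18 TPM, with a range of 3.79 to 16.6, whereas the 61 common subunits with no shared base had a median of 146.9 TPM and a lowest value of 19.8 TPM. The 11 subunits with less than 50% shared were between, with a median of 51.5 TPM. The 11 lowest common subunits all had a shared base. NDUFA13, also known as GRIM-19, had 4.25, 6.68 and 3.84 TPM. NDUFA11 had 5.21, 6.84 and 7.06 TPM. NDUFB8 had 13.1, 10.3 and 14.6 TPM. ATP5PO, the peripheral stalk subunit that confers sensitivity to oligomycin, had 15.5, 13.8 and 20.6 TPM. ATP5PB of the same stalk had 248.6 ± 19.2 TPM. The ratio of ATP5PB to ATP5PO was 15.4 ± 3.56 in TPM (SD, n = 3), 3.97 per canonical base and 11.5 per coding base. Over unshared canonical bases their levels were 202.9 and 141.1. For each of the 7 members, the gene with the largest overlap had 0 to 0.701 TPM itself. When the reads of the 7 members were divided by their unshared bases alone, which was tried once the data were known, the median was 55.6, against 207.9 for the members with no shared base on the same scale. How the counting treated reads in shared exons was not tested.

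**Figure D3:**
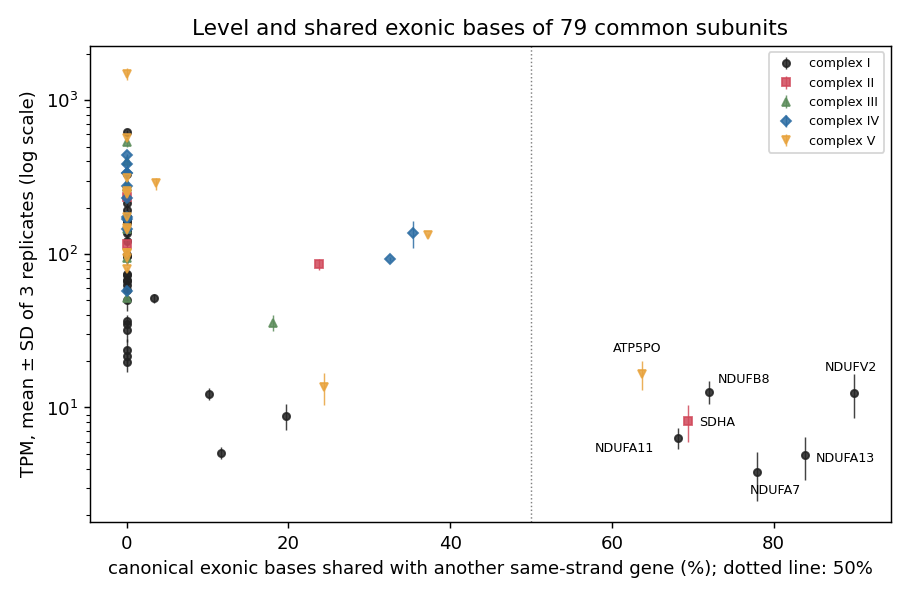
Mean TPM ± SD of 3 replicates (log axis) of the 79 common subunits against the percentage of canonical exonic bases that a gene on the same strand also covers, by complex. The 7 named genes at the right of the dotted line at 50% have means of 3.79 to 16.6 TPM, all under the lowest of the 61 genes at 0%, which is 19.8 TPM.

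Replicate 3 stood apart from the others in the table as a whole. RN7SL1, an abundant short noncoding RNA of the signal recognition particle, took 4.93%, 5.66% and 15.1% of all TPM in replicates 1 to 3. Among protein-coding genes at 10 TPM or more, replicate 3 was the lowest in 84.3% and the highest in 3.28%. Of the 75 members past that limit, it was the lowest in 43 (57.3%) and the highest in 19 (25.3%). The median log2 ratio of replicate 3 to replicate 1 was -0.11 for the members and -0.25 for protein-coding genes, and that to replicate 2 was -0.057 against -0.23. With protein-coding genes scaled to a fixed sum the members' medians turned to 0.093 and 0.12. That scaling multiplies every gene of a replicate by the same factor, so the sign of these medians follows from the scaling chosen. NDUFV2, with 8.95 TPM in replicate 1 and 16.7 TPM in replicate 3, had the largest ratio. In deposited TPM, the median CV between replicates was 7.89% for the members and 11.8% for protein-coding genes past 1 TPM. Both values contain the shift of replicate 3, which was larger in protein-coding genes. With replicates divided by their median ratio, the median log2 SD of the members went from 0.11 to 0.13. The spread of protein-coding genes was not computed on that scale. COX7A2 was the most even with a CV of 0.787%, and NDUFA7 the least even of those past 1 TPM with 34.7%. The part of RN7SL1, and of the lower depth of replicate 3, in these differences was not tested.

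**Figure D4:**
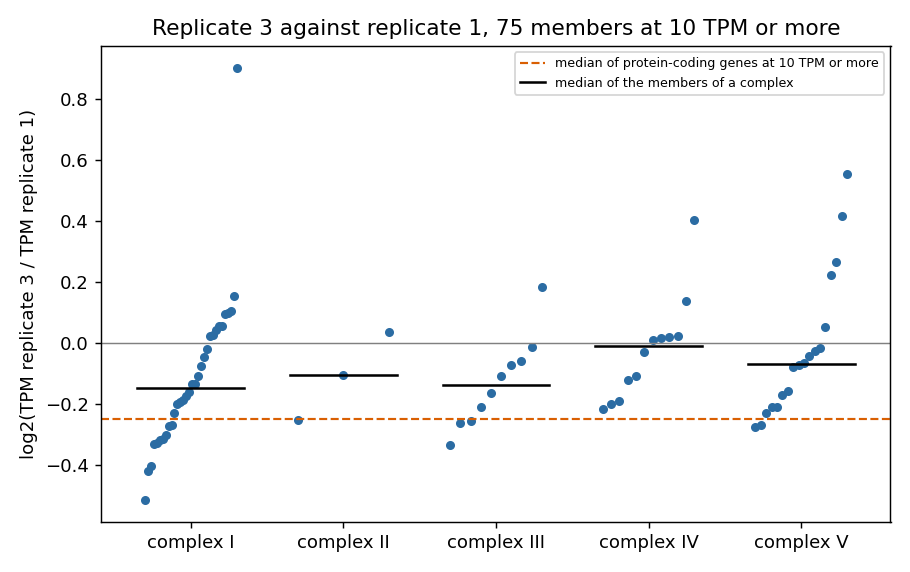
Log2 ratio of TPM in replicate 3 to replicate 1 for the 75 members at 10 TPM or more (points), by complex, with the median of each complex (black) and of protein-coding genes past the same limit (dashed). The medians of all 5 complexes lie above the dashed line at -0.25, on the scale of the deposited TPM.

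The members together held 1.399%, 1.35% and 1.31% of all TPM. The 13 subunits encoded by the mitochondrial genome held 6.05%, 5.73% and 6.03%, from 408.9 TPM for MT-ATP8 to 12460 TPM for MT-CO3. Assembly factors, which build the complexes and are not part of them, had medians of 30.99 TPM for complex I, 17.5 for II, 21.7 for III, 25.2 for IV and 11.8 for V, each below the median of the members of the same complex. For complex I, 18 of 18 passed 1 TPM, from NUBPL at 8.31 to NDUFAF8 at 91.2 TPM. For complex II it was 4 of 4, from SDHAF2 at 12.7 to SDHAF3 at 27.4 TPM, and for complex III 8 of 8, from UQCC5 at 9.58 to BCS1L at 55.4 TPM. For complex IV it was 26 of 27, from PET100 at 1.38 to HIGD2A at 321.1 TPM, and PET117 was below the limit at 0.290 TPM with 78.3% of its bases shared. For complex V it was 5 of 6, from TMEM242 at 6.18 to OXA1L at 90.1 TPM, and FMC1 was below it at a mean of 0.698 TPM. FMC1 had 0.187, 0.365 and 1.54 TPM on 1, 2 and 7 reads, so it passed the limit in replicate 3. Shared bases made up 57.7% of SDHAF2, 43.0% of PET100 and 28.0% of FMC1.

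Genes of other routes by which electrons reach ubiquinone were present in 7 of 8 cases. ETFA, of the electron transfer flavoprotein of fatty acid oxidation, was highest at 117.2 TPM, CHDH was lowest of those past the limit at 1.93 TPM, and PRODH, which oxidizes proline, had 0 reads. Of 13 transcriptional regulators of mitochondrial genes 11 passed 1 TPM, from GABPB2 at 6.24 to TFB2M at 132.8 TPM. The coactivator PPARGC1A, known from muscle and brown fat, had 0.0937 TPM and the receptor ESRRG 0.0968 TPM. Their relatives PPARGC1B and ESRRA were at 23.3 ± 4.13 and 70.2 ± 9.99 TPM.

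Promoters were read from RefSeq on GRCh38.p14 as 250 bases before to 50 bases after the first listed start, which gave 300 bases for 71 of the 90 members, 65 of them common subunits. Both strands were searched for letters bound by factors known from respiratory genes. The NRF1 letters GCGCATGCG were in 15.4% of common subunits, 2.76% of protein-coding genes and 2.10% of all promoters. The looser form GCGCNTGCG, which contains the first, was in 33.8%, 11.0% and 8.05%. The ETS letters CCGGAAG, bound by GABP, were in 30.8%, 14.2% and 10.7%, and the YY1 letters AAGATGGCG in 12.3%, 2.74% and 1.85%. By contrast, the CCAAT letters ATTGG were in 32.3%, 36.4% and 35.7%, and the TATA letters TATAAA in 9.23%, 9.63% and 11.95%. A match is a description of letters and not a binding site.

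The 120 bases before the start are printed for the highest members whose NRF1 or ETS letters lie in a stretch outside the annotated gene, and for COX6A2 as a form with 0 reads. Capitals mark the NRF1 letters in NDUFS6 and the ETS letters, which lie on the opposite strand, in UQCRH and COX6B1.
NDUFS6: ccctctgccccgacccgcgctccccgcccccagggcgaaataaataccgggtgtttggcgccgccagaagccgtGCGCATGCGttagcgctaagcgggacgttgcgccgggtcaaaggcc
UQCRH: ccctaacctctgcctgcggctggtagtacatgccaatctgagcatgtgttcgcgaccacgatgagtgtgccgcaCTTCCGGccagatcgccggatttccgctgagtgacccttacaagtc
COX6B1: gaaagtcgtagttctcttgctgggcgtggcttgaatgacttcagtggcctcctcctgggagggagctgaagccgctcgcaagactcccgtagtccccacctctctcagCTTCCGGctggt
COX6A2: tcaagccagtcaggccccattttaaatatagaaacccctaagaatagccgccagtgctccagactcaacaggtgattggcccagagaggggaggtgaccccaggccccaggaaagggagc

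The stretch of NDUFS6 is chr5:1801287-1801406 on the + strand and holds 16 CpG pairs. The stretch of UQCRH is chr1:46303578-46303697 on the + strand and holds 9. The stretch of COX6B1 is chr19:35648203-35648322 on the + strand and holds 6. The stretch of COX6A2 is chr16:31428361-31428480 on the - strand and holds 1. NDUFS6, a zinc-binding subunit of complex I, had 166.5, 153.2 and 169.6 TPM. UQCRH was the highest member of complex III in TPM, and COX6B1 followed COX6C in complex IV on the same scale. Over the whole 300 bases, the median number of CpG pairs was 23 in common subunits, with a range of 0 to 42. It was 22 in protein-coding genes, with 0 to 69, and 9 in the 4 tissue forms with a promoter, with 5 to 31. The ranges overlapped, and COX7A2, a common subunit at 334.9 TPM, had 0.

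**Figure D5:**
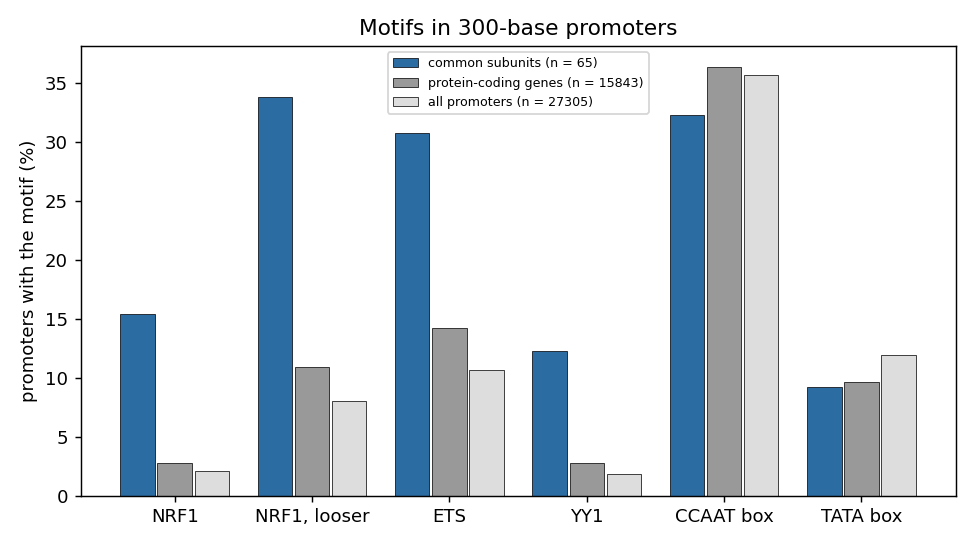
Percentage of 300-base promoters that hold each motif on either strand, for 65 common subunits, 15843 protein-coding genes and all 27305 promoters. The bars of the common subunits are higher for NRF1, its looser form, ETS and YY1, for example 15.4% against 2.76% for NRF1, and lower than protein-coding genes for the CCAAT and TATA boxes.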

How the data were processed

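Total RNA of untreated MCF10A cells with an empty vector was sequenced in 3 replicates, from libraries made from 300 ng of RNA depleted of ribosomal RNA. Reads were mapped to hg38 and counted with Seq2science by the authors, whose processing notes also name STAR, fastp and MultiQC. The authors deposited TPM per gene, in which each replicate sums to 1000000. The annotation release, gene length and use of strand are not given in the sources used here.

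The deposited TPM were used as they are, and 0 columns of values were left unused. Genes, lengths and exons came from GENCODE release 44, in which 62700 of 62754 genes were found. TPM times the longest transcript length less 1 base per exon, divided by its smallest value above 0, was within 0.02 of a whole number in 100% of cases, and the result was used as reads. The totals rest on that step being 1 read, and limits of 3 reads cover counting error only. Levels per canonical, coding or unshared base were computed from these reads on 1 scale. Shared bases are canonical exonic bases that another gene on the same strand covers.

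Members and lists were chosen with earlier results of these data known. No test was run. Every member may be named, and replicate values were given for paired forms, the highest and lowest member of each complex, members below 1 TPM, the catalytic core and members with at least 50% shared bases. The values of 1 member are not reported here. Of other lists the highest, the lowest and those below 1 TPM were named. PPARGC1B, ESRRA and the subunits given as examples beyond these were chosen after their values were seen. Proteins were translated from GENCODE coding sequences and aligned with Biopython 1.88. On simulated reads of 62700 genes, 100% of counts were returned. The simulation used the same lengths in both directions and held a gene with 1 read. It therefore checks the arithmetic only, and cannot show that the length or the step of 1 read is right. Alternatives covered the cutoff, replicate summary, scaling, pseudocount, filters, length and leaving out each replicate. Scripts ran in Python 3.11.15 with matplotlib 3.10.9, scipy 1.17.1, pandas 2.3.3 and numpy 2.4.6.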

Additional observations from a re-analysis of the deposited data

How the results depend on the processing

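No paired analysis was possible because the samples form a single group. Leaving out 1 replicate aside, 166 values were computed under alternatives, of which 93 stayed within the replicate SD (counts within 1.5 times), 69 moved further and 4 changed sign. For the replicate spread that SD was taken over its leave-one-out values, and for ratios between replicates it was the median log2 SD of the members. The count of members at or above 1 TPM did not move beyond that under any alternative run. With protein-coding genes summing to 1000000, the medians of complexes I to V over all members were 77.3, 116.1, 167.1, 159.3 and 165.2 TPM. The log2 ratios became 7.60 for COX4I1/COX4I2, 6.75 for COX6A1/COX6A2, 8.73 for COX6B1/COX6B2, 8.60 for COX7A2/COX7A1 and 7.40 for COX7B/COX7B2. The ratio of replicate 3 to replicates 1 and 2 reversed to 0.093 and 0.12, and with replicates divided by their median ratio to 0.14 and 0.18, where the replicate spread of members was 0.13. Without mitochondrially encoded genes, complexes I, II, III and V had 71.5, 107.3, 154.5 and 152.7 TPM. Without members of at least 50% shared bases, complexes I and II had 73.6 and 115.6 TPM. Without tissue forms, copies, CYCS and ATP5IF1, complexes III and IV had 270.8 and 202.6 TPM, and without members under 1 TPM complex IV had 202.6 TPM.

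A pseudocount of 0.1 TPM gave log2 ratios of 10.71 for COX4I1/COX4I2, 9.85 for COX6A1/COX6A2, 11.56 for COX6B1/COX6B2, 11.71 for COX7A2/COX7A1, 10.51 for COX7B/COX7B2, 10.40 for COX8A/COX8C, 7.99 for NDUFA4/NDUFA4L2, 8.52 for UQCRH/UQCRHL and 4.30 for ATP5MG/ATP5MGL. With members under 1 TPM kept, complex V ranged 2236-fold, and complex IV has no ratio since its lowest members are at 0. At a cutoff of 2 TPM, 0 members were called differently between replicates. Against genes past 1 TPM the median percentile was 85.9.

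Alternatives chosen after seeing the data used other lengths. Medians here are over all members, tissue forms and copies included, unlike the medians of common subunits given per length above. In deposited TPM they were 67.1, 100.6, 144.8, 136.7 and 143.2 for complexes I to V. Canonical length gave 141.1, 85.2, 118.3, 111.7 and 234.9 for the same members. It also gave ratios of 4.65 for CYC1/UQCRFS1, 1.41 for UQCRC1/UQCRC2, 8.66 for COX7A2/COX7A2L, 15.8 for NDUFV1/NDUFV2 and 65.9 for UQCRH/UQCRHL. It gave c ring shares of 30.01% for ATP5MC1, 43.1% for ATP5MC2 and 26.9% for ATP5MC3, and ranges of common subunits of 19.1, 11.3 and 38.6 in complexes III, IV and V. Coding length gave medians of 206.6, 227.8, 440.1, 418.5 and 531.3 over all members of complexes I to V. It also gave ratios of 1.51 for ATP5F1B/ATP5F1A, 1.51 for CYC1/UQCRFS1, 1.11 for UQCRC1/UQCRC2, 1.02 for SDHB/SDHC, 2.41 for COX7A2/COX7A2L, 15.5 for NDUFV1/NDUFV2 and 128.3 for UQCRH/UQCRHL. It gave shares of 23.4% for ATP5MC2 and 59.4% for ATP5MC3, and ranges of 6.28, 10.7 and 25.4 in complexes III, IV and V. Unshared length gave 55.6 for members with at least 50% shared, and ratios of 1.59 for NDUFV1/NDUFV2 and 9.36 for SDHB/SDHA. Without SDHA the range of complex II was 2.74.

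Leaving out each replicate in turn gave 0 to 2 members called differently, 0 without replicate 2, in which NDUFA4L2 and UQCRHL crossed 1 TPM. The median of complex IV over all members ranged from 121.2 to 145.8 TPM, and the replicate spread from 0.083 without replicate 3 to 0.11. The causes were not tested. Members under about 20 reads, such as NDUFA7, NDUFA4L2 and ATP5MGL, are limited by depth.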
